A study of Homo sapiens with 18 samples.

Results

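The gene set described here is made of glycolysis and hypoxia response genes: the glucose and lactate carriers, the enzymes that turn glucose into lactate, the hypoxia-inducible factors (HIF) with the enzymes that mark them for breakdown, and well-known HIF targets. Its 44 members were chosen by gene symbol from their textbook roles, with earlier results of these data known, and no measured value enters the rule. Each of the 44 symbols was found among the 50119 genes of the deposited expression table. RNA was sequenced from human osteosarcoma Saos-2 cells (spelled Soas-2 in the sample labels, genotype given as wild type), a line derived from 1 tumour and grown in 6 ways, with 3 libraries per group. D-2 was the 2D cell layer at day 14, D-3 the cells grown in Matrigel at day 14, and DP-3 the 3D cell-printed tissue, in which cells are held in a gelatin-methacrylate and alginate ink, sampled at day 1 and at day 14. FIT was fresh tumour tissue taken from BALB/c nude mice 2 weeks after Saos-2 cells had been implanted under the skin in Matrigel, and IT was tissue of such tumours cultured on Matrigel for 14 days. By the study's methods an excised tumour was split between culture and use as fresh tissue, so IT and FIT libraries may share tumours, but the labels do not tie them to animals and no pairing could be made. The nude host lacks mature T cells but keeps its vessels, stroma and innate immune cells, and mouse RNA can be present in FIT and IT. The printed tissue at day 14 is called DP-3 and that at day 1 is called DP-3 day 1.

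Glycolysis splits glucose into pyruvate and yields ATP without oxygen, and lactate dehydrogenase then reduces pyruvate to lactate so that the pathway can go on. In oxygenated cells the prolyl hydroxylases EGLN1 and EGLN3 mark the HIF alpha subunits HIF1A and EPAS1 for degradation, so HIF is set mainly at the protein level and its RNA need not follow oxygen. When oxygen is low the subunits persist and raise transcription of glucose carriers, glycolytic enzymes, angiogenic factors such as VEGFA, the mitophagy receptors BNIP3 and BNIP3L and the growth brake DDIT4. Many of the same targets also answer to nutrient and endoplasmic reticulum stress. Solid tumours, osteosarcoma included, hold poorly perfused regions, and dense 3D cultures are used to model them.

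The HIF complex binds the core motif ACGTG (or GCGTG). The promoter windows of 4 members are printed because these genes differed between D-3 and D-2 in opposite directions (LDHA and PGK1 lower, DDIT4 and ANKRD37 higher in D-3) although each window holds the motif. Each is the 250 bases before a RefSeq start site on the plus strand of GRCh38.p14, with ACGTG or its reverse complement in capitals, and where CACGTG stands both strands match in an overlapping way.
LDHA, lactate dehydrogenase A, chr11:18394313-18394562: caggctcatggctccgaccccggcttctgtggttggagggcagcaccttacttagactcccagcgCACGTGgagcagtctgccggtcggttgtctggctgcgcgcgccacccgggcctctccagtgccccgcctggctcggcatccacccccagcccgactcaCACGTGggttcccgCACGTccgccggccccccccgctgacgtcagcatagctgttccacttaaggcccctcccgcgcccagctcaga
PGK1, phosphoglycerate kinase 1, chrX:78103998-78104247: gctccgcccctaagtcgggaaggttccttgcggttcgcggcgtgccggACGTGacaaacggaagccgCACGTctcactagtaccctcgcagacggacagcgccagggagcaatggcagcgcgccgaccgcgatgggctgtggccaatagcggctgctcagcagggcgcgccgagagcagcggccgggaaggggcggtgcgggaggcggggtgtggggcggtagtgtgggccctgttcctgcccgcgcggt
DDIT4, an inhibitor of mTOR complex 1, chr10:72273674-72273923: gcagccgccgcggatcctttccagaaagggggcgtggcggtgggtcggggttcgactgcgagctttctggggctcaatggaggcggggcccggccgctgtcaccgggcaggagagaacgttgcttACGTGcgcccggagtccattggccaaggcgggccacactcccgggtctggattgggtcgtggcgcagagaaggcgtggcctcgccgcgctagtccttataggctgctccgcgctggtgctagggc
ANKRD37, an ankyrin repeat protein gene, chr4:185396591-185396840: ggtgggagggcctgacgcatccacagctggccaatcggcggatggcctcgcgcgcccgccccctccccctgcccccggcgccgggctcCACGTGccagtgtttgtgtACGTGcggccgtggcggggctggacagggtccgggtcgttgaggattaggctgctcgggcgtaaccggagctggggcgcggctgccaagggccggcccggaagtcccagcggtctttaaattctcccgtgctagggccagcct
The LDHA and DDIT4 windows end at the first bases of the deposited genes, whereas the PGK1 and ANKRD37 windows lie inside the span of the deposited gene, ahead of a shorter RefSeq transcript. In the 300-base RefSeq windows (250 bases before to 50 after a start), ACGTG on either strand was found for 24 of the 39 members with an entry (61.5%), against 24.9% of all 27305 genes with one. For GCGTG the shares were 24 of 39 members (61.5%) and 40.6% of all genes. Genes can have several windows and the members have more of them (69 for 39 members, 35116 for 27305 genes), and counted per window the shares were closer, at 40.6% of member windows against 21.4% for ACGTG and 43.5% against 36.5% for GCGTG. BNIP3L, NDRG1, SLC16A1, SLC2A3 and VEGFA had no entry. A match describes the letters of the window and does not show that HIF was bound.

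The libraries held 23721666 to 79082786 estimated counts, with FIT replicate 3 the smallest and all others at 50327345 or more. Mitochondrial genes took 9.85% to 34.0% of the summed FPKM (fragments per kilobase of transcript, scaled to the library's reads), the most in DP-3 replicate 3. Of 8 osteoblast lineage markers, SPARC was high in every library (111 to 289 FPKM) and RUNX2 was at 0.610 to 2.41 FPKM, but ALPL, IBSP and SP7 reached no more than 0.148, 0.0802 and 0.0949 FPKM. Saos-2 is known for its alkaline phosphatase, the product of ALPL, so these 3 markers go against the labelled line, and the name Saos-2 is used here as the labels give it. FIT replicate 3 also had the highest summed level of 16 skeletal muscle markers, 6.63 FPKM against at most 2.40 in any other library. The largest part was MYH2, at 3.61 FPKM there against at most 0.0709 elsewhere, and MYH1 (0.791) and ACTA1 (0.546) were also highest there. CKM, MYH4, MYL1 and PVALB were at 0 in this library. TNNC2, TNNI2 and NEB were higher in FIT replicate 1, TNNT3 in FIT replicates 1 and 2, and ATP2A1 in DP-3 day 1 replicate 3. The 6 fibroblast markers summed to 20.4 to 31.0 FPKM in FIT and to at most 18.7 in the 15 other libraries. Most of this sum was PDGFRA, at 12.6 to 28.3 FPKM in FIT, 11.6 to 11.9 in D-2 and 17.9 in IT replicate 2. Among the 6 markers CLEC3B was at 1.64 to 4.11 FPKM in FIT against at most 0.608 elsewhere. DPT was at 0.322 and 0.729 in FIT replicates 1 and 2 and at 4.26 in FIT replicate 3, against up to 1.74 in D-2. LUM was at 0.194 to 0.405 in FIT against up to 1.53 in DP-3, and PI16 at 0.0940 to 0.192 against up to 0.261 in DP-3 day 1. DCN was at 0.0858 or less in all 18 libraries. COL1A1, counted with the osteoblast markers, was at 19.6 to 21.0 FPKM in FIT against at most 12 elsewhere. KRT14, a keratinocyte marker, was at 10.4 FPKM in FIT replicate 1, 1.67 in FIT replicate 2 and 0.115 in FIT replicate 3. Outside FIT it reached at most 0.336 FPKM, in IT replicate 3. Of the other keratinocyte markers, KRT5 was at 0.642 to 2.04 FPKM in FIT, above every other library, and KRT1 was at 0 in FIT. KRT10 was high in every library, at 19.4 to 30.2 FPKM in FIT and 16.2 to 27.2 in the 15 others, and so did not set FIT apart. The part of such cells in the results against FIT was not tested. The 3 DP-3 day 1 libraries differed from each other by little more than counting noise. The sources do not say whether libraries of a group came from separate cultures or animals, so p-values measure only the spread between these libraries.

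Across the set, enzymes of glycolysis and targets of the hypoxia and stress response were ordered differently over the 6 groups. The summed FPKM of the 17 enzyme genes from hexokinase to lactate dehydrogenase was 3771 ± 104 in D-2 (mean ± SD, n = 3, as for all such values below), 3323 ± 201 in DP-3, 3037 ± 315 in FIT, 2782 ± 319 in D-3, 2732 ± 159 in IT and 2689 ± 23.6 in DP-3 day 1. The 3 D-2 libraries (3669 to 3877) lay above all 15 others (2469 to 3441). The sum is weighted to the most abundant genes, with GAPDH at a mean of 1569 FPKM and ENO1 at 511 in D-2. By mean level HK1, HK2, PFKL, PFKM, ALDOA, ALDOC and ENO2 were highest in groups other than D-2. By mean level, 12 members were highest in D-2, 12 in D-3, 10 in IT, 5 in DP-3 day 1, 3 in FIT and 2 in DP-3, while 16 were lowest in FIT and 10 in D-2. IT replicate 3 was the highest of the 18 libraries for 10 members (HIF1A, EPAS1, CA9, CA12, ADM, ANGPTL4, NDRG1, P4HA1, MXI1 and ALDOA) and the lowest for 4 (PFKP, TPI1, ENO1 and ALDOC). The shares of all genes that were highest or lowest in each group or library were not counted, so these counts cannot be read as unusual. FPKM is scaled to the whole library and to gene length, so it moves with the mitochondrial share, and in bulk RNA fewer cells of a type and less RNA per cell cannot be told apart.

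**Figure D1:**
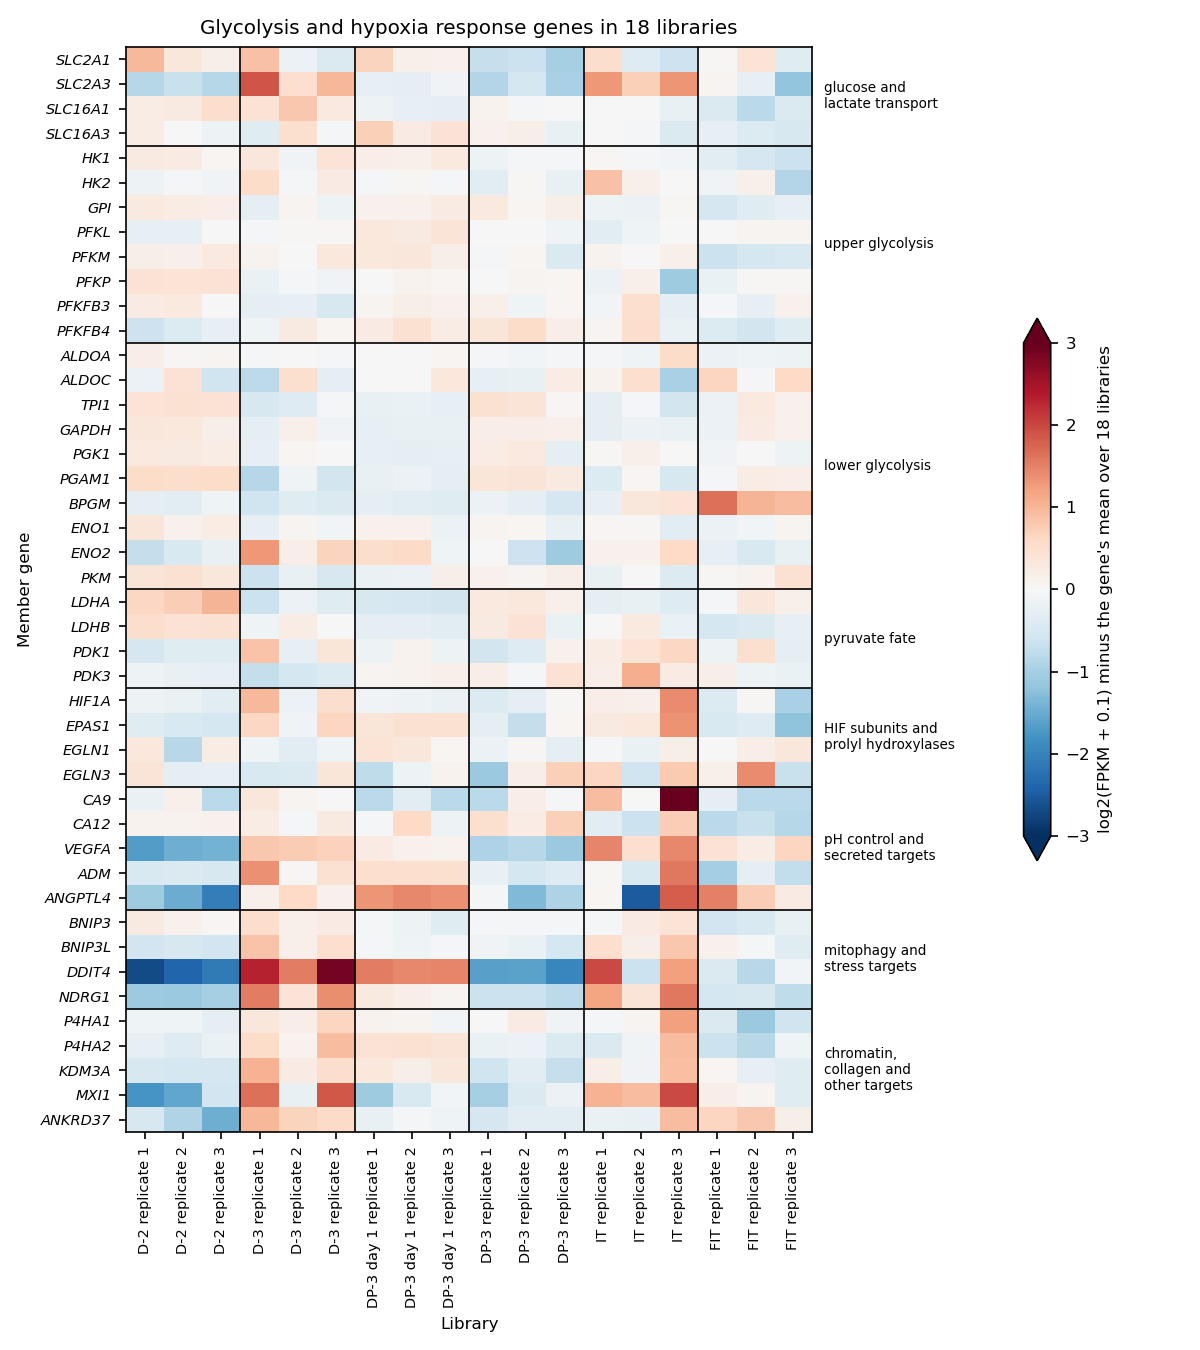
Each row is 1 of the 44 members, grouped by role, and each column 1 library of the 6 groups. Colour gives log2(FPKM + 0.1) minus the member's mean over the 18 libraries, with the scale ending at -3 and 3. DDIT4 runs from 2.90 FPKM in D-2 replicate 1 to 140.2 in D-3 replicate 3, BPGM is highest in the 3 FIT libraries, and CA9 stands out in IT replicate 3.

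The 7 comparisons were each made on their own 6 libraries with edgeR's quasi-likelihood test on the deposited estimated counts. A differentially expressed gene (DEG) was a gene at least 2-fold changed with an adjusted p (Benjamini-Hochberg, over all genes tested) under 0.05. The 4 comparisons with FIT share its 3 libraries and are therefore not independent. An exact permutation test of 3 against 3 libraries cannot go below p = 0.1, so none was used for single genes.

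D-3 against D-2 compared cells grown in Matrigel with the 2D cell layer at the same day, and gel and 3D growth cannot be told apart. There 8 of 42 members tested were upregulated DEGs (19.0%) beside 14.6% of all 20231 genes tested, and 3 were downregulated (7.14%) beside 3.95%. At any fold, 11 members rose (26.2%) beside 19.2% of genes, and 14 fell (33.3%) beside 16.3%. The 14 that fell were GPI, PFKP, PFKFB3, ALDOA, TPI1, GAPDH, PGK1, PGAM1, BPGM, ENO1, PKM, LDHA, LDHB and PDK3, of which PDK3 restrains pyruvate oxidation and the others act in glycolysis, on its intermediates or at lactate dehydrogenase. The 11 that rose were SLC2A3, ENO2, EPAS1, VEGFA, ANGPTL4, BNIP3L, DDIT4, NDRG1, KDM3A, MXI1 and ANKRD37. Of the 17 core enzymes, 15 had a fold change below 0 on the log2 scale, with a median of -0.57, and of 13 tested targets outside glycolysis 11 were above 0, with a median of 0.94, against a median of 0.11 over all genes. Tested as log2(FPKM + 0.1) with limma, which shifted the median of all genes to 0.30, 14 members rose and 8 fell at any fold. The share of all genes at any fold was not counted on this scale. At 2-fold limma called 11 members up and 2 down, beside 3973 and 389 of the 20231 genes.

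**Figure D2:**
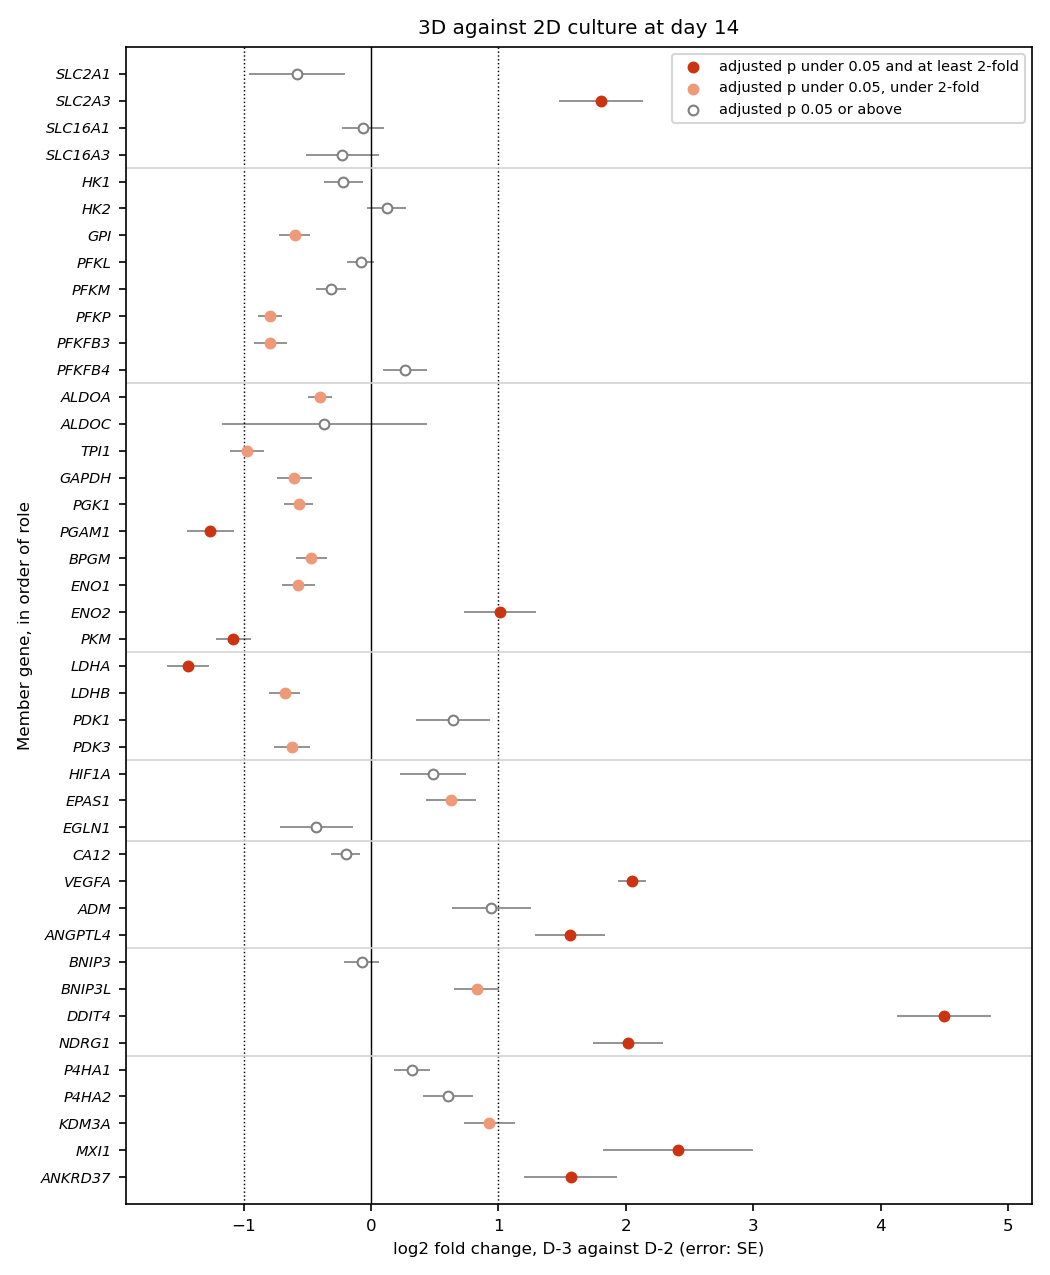
Points give the log2 fold change of each tested member in D-3 against D-2 (x axis) with its SE from edgeR, in order of role from top to bottom. Filled points passed an adjusted p of 0.05, and the darker ones also lie outside the dotted 2-fold lines. Glycolytic enzymes lie mostly left of 0 (LDHA -1.43), and the targets below them mostly right of it (DDIT4 4.50, MXI1 2.41).

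D-2 against FIT set the cell layer beside the fresh tumour. Here 3 of 43 members were upregulated DEGs (6.98%) beside 3.83% of 19513 genes, and 5 were downregulated (11.6%) beside 10.8%. At any fold 15 members rose (34.9%) beside 16.0% of genes, 11 of them among the 17 core enzymes, and 5 fell (11.6%) beside 14.9%. With limma on FPKM the split at any fold was 12 up and 7 down, for which no share of all genes was counted. At 2-fold limma called 0 members up and 6 down, beside 541 and 2599 of the 19513 genes. Without FIT replicate 3, 2 members were upregulated and 6 downregulated DEGs, beside 1004 and 1976 of 18387 genes.

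D-3 against FIT gave 6 upregulated DEGs among 43 members beside 4.29% of 21676 genes, and 1 downregulated (2.33%) beside 2.17%. At any fold 9 members rose (20.9%) beside 5.11%, and 1 fell (2.33%) beside 3.17%. The number of member DEGs dropped to 2 when D-3 replicate 1 was left out and to 3 when D-3 replicate 3 or FIT replicate 2 was. The DEGs among all genes dropped too, from 929 up and 470 down. They were 199 and 148 without D-3 replicate 1, 139 and 101 without D-3 replicate 3, and 440 and 192 without FIT replicate 2. Without FIT replicate 3, 5 members were up and 1 down, beside 983 and 512 of 20993 genes.

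DP-3 against FIT gave 1 upregulated DEG among 43 members (2.33%) beside 1.66% of 20039 genes, and 3 downregulated (6.98%) beside 3.16%. Without FIT replicate 3 these were 1 and 4, beside 631 and 807 of 19123 genes.

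IT against FIT, the cultured against the uncultured tumour tissue, had 0 DEGs in edgeR's test, among the members and among all 21183 genes (0.0% up and 0.0% down). At an unadjusted p under 0.05 there were 21 members and 2693 genes, and DESeq2 called 5 members up (SLC2A3, NDRG1, EPAS1, MXI1 and P4HA1) and 1 down (BPGM), with 435 and 226 genes. In counts simulated from D-3 and FIT, DESeq2 made 69 false calls beside 109 true ones. The 3 IT libraries lay wholly above the 3 FIT libraries for 18 members beside 11.1% of all genes, and wholly below for 3 members (PKM, LDHA and BPGM) beside 9.49%. Among the 18 were SLC2A3, SLC16A1, HIF1A, EPAS1, NDRG1, MXI1 and P4HA1. Leaving out any 1 of the 6 libraries gave 0 DEGs among the members in edgeR's test. Among all genes it gave 1 downregulated DEG without IT replicate 2, 1 upregulated DEG without FIT replicate 2 and 0 in the other 4 fits.

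DP-3 against DP-3 day 1 followed the printed tissue over time. One member of 43 was an upregulated DEG (2.33%) beside 1.81% of 20774 genes, and 2 were downregulated (4.65%) beside 5.76%. At any fold 9 rose (20.9%) beside 12.2% and 8 fell (18.6%) beside 9.91%. The 9 were SLC16A1, TPI1, GAPDH, PGK1, PGAM1, PKM, LDHA, LDHB and BNIP3, and the 8 were SLC2A1, VEGFA, ADM, ANGPTL4, DDIT4, NDRG1, P4HA2 and KDM3A. On the FPKM scale, which moved the median of all genes from -0.06 to -0.29, limma gave 3 up and 12 down at any fold. No share of all genes was counted for this. At 2-fold limma called 0 members up and 4 down, beside 161 and 2119 of the 20774 genes. With the 3 day 1 libraries averaged into 1, an alternative chosen after seeing the data, 0 members and 0 genes were DEGs in edgeR's test, with 13 members and 3177 genes at an unadjusted p under 0.05.

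DP-3 against D-2 compared both day 14 cultures of cells. Of 43 members, SLC2A1 was a downregulated DEG (2.33%) beside 0.318% of 18549 genes, and 0 were upregulated in edgeR's test beside 0.722%. In both directions 16 members and 4210 genes had an unadjusted p under 0.05. At any fold VEGFA and PFKFB4 rose (4.65%) beside 253 of the 18549 genes, and SLC2A1 fell (2.33%) beside 184.

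Among the carriers, SLC2A3, the neuronal-type glucose transporter GLUT3 (chr12:7919230-7936187), was high in the Matrigel culture and in the cultured tumour tissue. It stood at 4.94, 5.65 and 4.95 FPKM in D-2, 33.6, 12.8 and 18.4 in D-3, 7.68, 7.55 and 8.43 in DP-3 day 1, 4.93, 6.31 and 4.61 in DP-3, 22.4, 15.1 and 22.8 in IT, and 9.54, 7.63 and 3.96 in FIT. All D-3 and IT libraries lay above all 12 others, and it was a DEG in D-3 against D-2 (log2 fold change 1.81 ± 0.33 (SE), adjusted p = 0.00710) and was 1.55 ± 0.41 higher (log2 ± SE) in D-3 than in FIT, where it missed the threshold (adjusted p = 0.0569). SLC2A1, the widespread glucose transporter GLUT1 (chr1:42925353-42958868), showed no such pattern and had 7.65, 4.91 and 4.37 FPKM in D-2, 7.19, 3.43 and 2.84 in D-3, 6.25, 4.34 and 4.26 in DP-3 day 1, 2.35, 2.45 and 1.88 in DP-3, 5.67, 2.93 and 2.49 in IT, and 4.0, 5.19 and 2.98 in FIT. The other groups overlapped, and the 3 DP-3 libraries were the lowest of the 18. SLC2A1 was the DEG of DP-3 against D-2 (log2 fold change -1.37 ± 0.22 (SE), adjusted p = 0.0349), a call lost without any 1 of the 6 libraries (adjusted p = 0.0543 without DP-3 replicate 3 to 0.126 without D-2 replicate 2). GLUT3 made up 82.6 ± 3.84% of the summed FPKM of both carriers in D-3 and 84.6 ± 5.21% in IT, against 48.6 ± 8.13% in D-2 and 62.3 ± 7.14% in FIT.

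SLC16A1, the lactate carrier MCT1 (chr1:112911847-112956196), was lowest in the fresh tumour. Its values were 23.0, 23.9 and 28.5 FPKM in D-2, 26.9, 35.0 and 24.1 in D-3, 17.9, 16.6 and 16.0 in DP-3 day 1, 21.4, 19.4 and 19.6 in DP-3, 19.9, 19.5 and 17 in IT, and 14.6, 11.3 and 14.6 in FIT. The 3 FIT libraries lay below the 15 others, and the gene was a DEG in D-2 (log2 fold change 1.06 ± 0.13 (SE), adjusted p = 0.00273) and D-3 (log2 fold change 1.04 ± 0.18 (SE), adjusted p = 0.0166) against FIT. Both calls sat near 2-fold: that of D-2 fell short when D-2 replicate 3 or FIT replicate 2 was left out (log2 fold changes 0.95 and 0.94), and that of D-3 when D-3 replicate 1 or FIT replicate 2 (adjusted p = 0.0533 and 0.0663) or D-3 replicate 2 (log2 fold change 0.87) was. SLC16A3, the lactate exporter MCT4 and a known HIF target, stayed at 0.433 to 1.14 FPKM and passed the test in no comparison.

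The 8 genes of upper glycolysis, from hexokinase to the enzymes that set fructose 2,6-bisphosphate, held no DEG in any comparison. PFKP, the platelet-type phosphofructokinase and, by its mean over the 18 libraries, the most abundant of the 8 (chr10:3066333-3137715), was at 69.8, 68.5 and 69.3 FPKM in D-2, 44.9, 49.7 and 48.3 in D-3, 51.1, 55.1 and 53.5 in DP-3 day 1, 51.9, 54.9 and 53.7 in DP-3, 45.8, 57.4 and 24.8 in IT, and 44.7, 53.3 and 52.5 in FIT. D-2 lay above every other library, IT replicate 3 below them all, and PFKP rose in D-2 against FIT (log2 fold change 0.62 ± 0.11 (SE), adjusted p = 0.00805) and fell in D-3 against D-2 (log2 fold change -0.79 ± 0.09 (SE), adjusted p = 0.00229) with less than 2-fold change. PFKP gave 79.4 ± 1.14% of the phosphofructokinase FPKM in D-2 and 69.4 ± 10.9% in IT. GPI (12 to 21.1 FPKM over the 18 libraries), HK1 (27.3 to 56.7) and PFKM (5.49 to 11) also rose in D-2 against FIT, with log2 fold changes of 0.76, 0.84 and 0.91. HK2, the hexokinase usually induced by hypoxia, ranged from 9.01 to 31.0 FPKM and passed in no comparison. PFKFB3 (4.28 to 8.58 FPKM) fell in D-3 against D-2 by 0.79 on the log2 scale, PFKFB4 (1.62 to 3.78) rose in DP-3 against FIT by 0.96, and PFKL (7.08 to 11.7) passed nowhere.

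In lower glycolysis most genes were highest in the 2D layer. PGAM1, phosphoglycerate mutase (chr10:97426191-97433444), was at 187, 186 and 189 FPKM in D-2, 71.4, 119 and 88.7 in D-3, 111, 114 and 105 in DP-3 day 1, 167, 168 and 156 in DP-3, 96.5, 135 and 92.0 in IT, and 127, 149 and 148 in FIT. The D-2 libraries were above all others and D-3 below D-2, DP-3 and FIT without overlap, and PGAM1 was a DEG in D-3 against D-2 (log2 fold change -1.26 ± 0.18 (SE), adjusted p = 0.00371), with or without any 1 library. PKM, pyruvate kinase (chr15:72199029-72231680), had 253, 265 and 242 FPKM in D-2, 123, 165 and 139 in D-3, 168, 172 and 217 in DP-3 day 1, 211, 204 and 217 in DP-3, 164, 190.3 and 146 in IT, and 199, 208 and 265 in FIT. All D-3 libraries were below all D-2 libraries, and PKM was also a DEG there (log2 fold change -1.08 ± 0.13 (SE), adjusted p = 0.00257), with a change of -0.95, under 2-fold, without D-3 replicate 1. PGK1 (chrX:77910739-78129295), the first ATP-yielding enzyme of the pathway, was at 258, 252 and 246 FPKM in D-2, 177, 217 and 213 in D-3, 175, 174 and 177 in DP-3 day 1, 246, 255 and 175 in DP-3, 214, 232 and 209 in IT, and 194, 208 and 187 in FIT. It fell in D-3 against D-2 (log2 fold change -0.57 ± 0.12 (SE), adjusted p = 0.0101) and rose in DP-3 against day 1 (log2 fold change 0.62 ± 0.13 (SE), adjusted p = 0.0158), although DP-3 replicate 3, the library with the largest mitochondrial share, stood at the day 1 level in FPKM.

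GAPDH (1072 to 1634 FPKM), TPI1 (123 to 248), ENO1 (345 to 555) and ALDOA (123 to 204), which catalyse other steps of the pathway, fell in D-3 against D-2 by 0.60, 0.98, 0.57 and 0.40 on the log2 scale. ENO2, the neuronal enolase (chr12:6913745-6923696), moved the other way and had 4.59, 5.57 and 6.52 FPKM in D-2, 19.1, 8.86 and 12.1 in D-3, 11.1, 11.5 and 6.96 in DP-3 day 1, 7.76, 4.93 and 3.59 in DP-3, 8.33, 8.43 and 11.6 in IT, and 6.42, 5.52 and 6.59 in FIT. D-3 exceeded D-2 and FIT in every library, and ENO2 was a DEG against both (log2 fold change 1.01 ± 0.28 (SE), adjusted p = 0.0291, and log2 fold change 1.05 ± 0.27 (SE), adjusted p = 0.0490). Leaving out D-2 replicate 1 or 2 or D-3 replicate 1 or 3 ended the first call (adjusted p = 0.0512 to 0.0927), and leaving out any library but D-3 replicate 2 ended the second (0.0891 to 0.144). ENO2 made up 3.26 ± 1.58% of enolase FPKM in D-3 and 1.09 ± 0.237% in D-2. ALDOC was at 0.272 FPKM or less throughout, with 56 estimated counts at most, and its fold changes are not given.

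BPGM, the enzyme that makes 2,3-bisphosphoglycerate and is best known from red blood cells (chr7:134646811-134679813), was highest in the fresh tumour. Its values were 14.8, 14.5 and 16.6 FPKM in D-2, 12, 14.2 and 13.4 in D-3, 14.9, 14.6 and 14.3 in DP-3 day 1, 16.2, 14.8 and 12.8 in DP-3, 15.3, 23.1 and 24.2 in IT, and 57.9, 37.1 and 34.5 in FIT. The 3 FIT libraries lay above the 15 others, and BPGM was a downregulated DEG in D-2 (log2 fold change -1.34 ± 0.19 (SE), adjusted p = 0.00401), D-3 (log2 fold change -1.76 ± 0.22 (SE), adjusted p = 0.00504) and DP-3 (log2 fold change -1.44 ± 0.20 (SE), adjusted p = 0.0133), and 1.03 ± 0.26 lower in IT without passing (adjusted p = 0.216). The calls in D-2 and D-3 held without any 1 library, and that in DP-3 was lost without any 1 of the DP-3 replicates 1, 2 and 3 (adjusted p = 0.0559, 0.0526 and 0.0518). The summed level of 5 human red blood cell markers (ALAS2, HBA1, HBA2, HBB and SLC4A1) in FIT was 0 to 0.125 FPKM, with ALAS2 and HBA2 at 0 in all 3 libraries and no gene above 0.108. The summed fibroblast markers, CLEC3B and COL1A1 were also highest in FIT, whereas LUM, PI16 and DCN were not. The part of mouse blood RNA and of these cells in this result was not tested.

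At the pyruvate branch, LDHA, the dehydrogenase subunit favoured in lactate formation (chr11:18394560-18408425), was at 186, 201 and 244 FPKM in D-2, 77.0, 108 and 93.7 in D-3, 86.5, 84.6 and 82.7 in DP-3 day 1, 147, 151 and 134 in DP-3, 101, 104 and 92.7 in IT, and 116, 152 and 135 in FIT. The order of the means was D-2, DP-3, FIT, IT, D-3 and DP-3 day 1. LDHA was a downregulated DEG in D-3 against D-2 (log2 fold change -1.43 ± 0.16 (SE), adjusted p = 0.00215) and the upregulated DEG of DP-3 against day 1 (log2 fold change 1.03 ± 0.08 (SE), adjusted p = 0.00141), in which leaving out day 1 replicate 3 gave 0.995, just under 2-fold. It rose in D-2 against FIT (log2 fold change 0.80 ± 0.16 (SE), adjusted p = 0.0114). LDHB, the subunit favoured in lactate use (chr12:21635342-21657971), had 225, 210.3 and 216 FPKM in D-2, 144, 184 and 157 in D-3, 128, 128 and 125 in DP-3 day 1, 189.7, 214 and 136 in DP-3, 158, 191 and 137 in IT, and 109, 117 and 132 in FIT. It was a DEG in D-2 against FIT (log2 fold change 1.02 ± 0.11 (SE), adjusted p = 0.00205), at under 2-fold when replicate 1 of D-2 or replicate 1 of FIT was left out (0.99 and 0.91).

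LDHA gave 52.8 ± 3.24% of the summed FPKM of both subunits in FIT, 49.1 ± 3.88% in D-2, 44.8 ± 4.23% in DP-3, 40.0 ± 0.280% in DP-3 day 1, 38.2 ± 2.69% in IT and 36.4 ± 1.28% in D-3. The D-3 libraries (34.9% to 37.3%) did not overlap those of D-2 (45.3% to 53.0%) or FIT (50.4% to 56.5%). This ratio is formed within a library and is free of its scaling. PDK1, a HIF-induced kinase that restrains pyruvate oxidation, was at 0.538 to 1.59 FPKM and passed in no comparison. PDK3, at 0.854 to 3.19 FPKM, fell in D-3 against D-2 by 0.62.

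**Figure D3:**
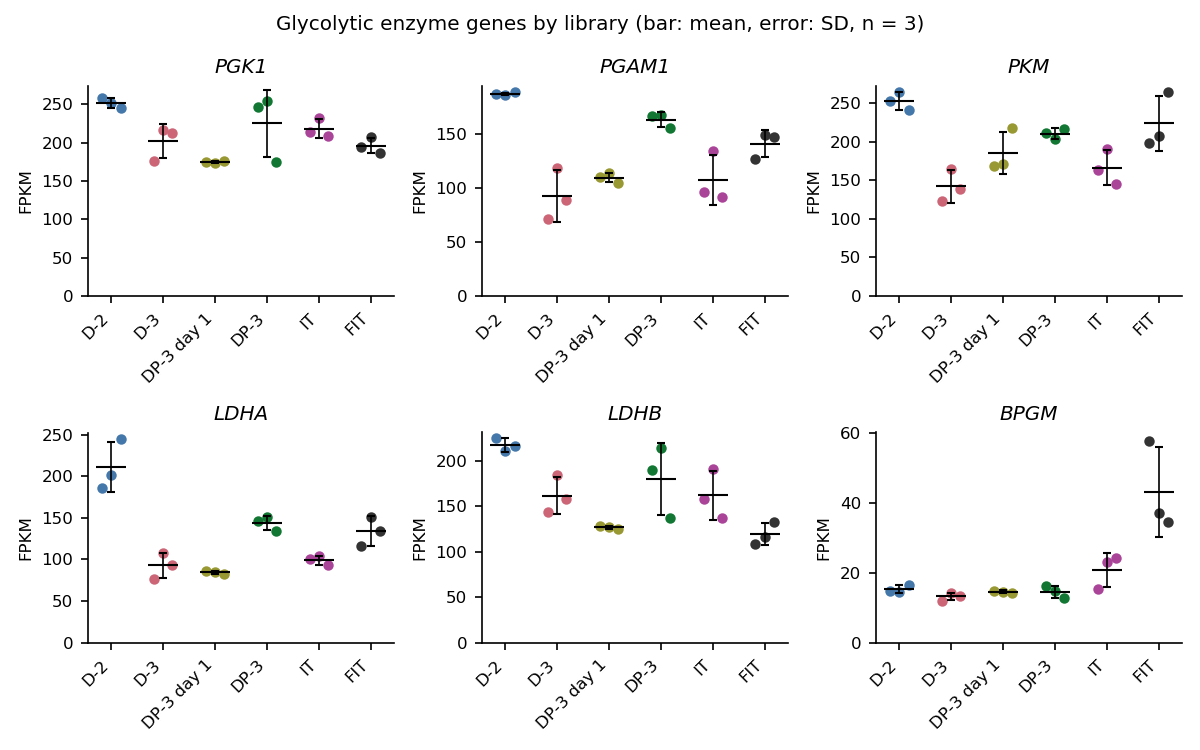
FPKM of 6 enzyme genes (y axes) in each library of the 6 groups (x axes), with the mean as a bar and the SD as error (n = 3). PGAM1, PKM and LDHA sit highest in D-2 and lower in D-3, while BPGM sits between 34.5 and 57.9 in FIT and at 24.2 or below elsewhere.

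Neither HIF subunit gene was a DEG in any comparison in edgeR's test of its 6 libraries. HIF1A (chr14:61695513-61748258) was at 137, 132 and 122 FPKM in D-2, 297, 135 and 220.0 in D-3, 141, 137 and 131 in DP-3 day 1, 115, 124 and 155 in DP-3, 173, 169.8 and 405 in IT, and 113, 156 and 77.1 in FIT. All IT libraries lay above all those of D-2, DP-3 day 1, DP-3 and FIT, with IT replicate 3 far above the rest. The other pairs of groups overlapped, and HIF1A passed in no comparison. EPAS1, which encodes HIF-2 alpha (chr2:46293667-46386696), had 19, 17.8 and 16.9 FPKM in D-2, 37.5, 23.0 and 38.3 in D-3, 31.7, 33.7 and 33.5 in DP-3 day 1, 20.2, 14.9 and 25.5 in DP-3, 29.7, 30.5 and 62.4 in IT, and 18, 18.8 and 10.5 in FIT. It rose in D-3 against D-2 under 2-fold (log2 fold change 0.63 ± 0.20 (SE), adjusted p = 0.0436), with all D-3 above all D-2 libraries. Leaving out any 1 library but D-3 replicate 2 raised edgeR's adjusted p to 0.0892 to 0.119. It was 0.0622 with a replicate block, 0.0733 without an FPKM filter and 0.116 in 1 fit of all 18 libraries. In edgeR's test of the 6 libraries EPAS1 had an adjusted p of 0.229 in IT against FIT and 0.0718 in D-3 against FIT. It was called in IT against FIT by DESeq2 (log2 fold change 1.38, adjusted p = 0.0148) and by edgeR in 1 fit of all 18 libraries (log2 fold change 1.38, adjusted p = 0.0159). In D-3 against FIT edgeR called it without D-3 replicate 2 (log2 fold change 1.20, adjusted p = 0.0448). Leaving out any other library there gave an adjusted p of 0.101 to 0.225. HIF1A made up 80.5% to 87.9% of the summed FPKM of both subunits by group mean.

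Of the prolyl hydroxylases, EGLN1 ranged from 2.80 to 6.71 FPKM and passed in no comparison. EGLN3, itself a hypoxia target in many cells, reached no more than 0.516 FPKM, was tested in 6 of the 7 comparisons and passed in none. CA9, the membrane carbonic anhydrase often used as a hypoxia marker, was at or near 0: 0.0520, 0.0921 and 0 FPKM in D-2, 0.120, 0.0848 and 0.0743 in D-3, 0, 0.0388 and 0 in DP-3 day 1, 0, 0.0996 and 0.0658 in DP-3, 0.228, 0.0712 and 2.63 in IT, and 0.0450, 0 and 0 in FIT. Its estimated count was 12 or less, about 3 read pairs, in 13 of the 18 libraries and 292 in IT replicate 3. It did not reach 0.1 FPKM in 3 libraries of any comparison and was tested only without that minimum, where it passed in none (adjusted p = 0.175 in IT against FIT, the lowest of the 7). A gene that overlaps CA9, ARHGEF39, averaged at least 1 FPKM over the libraries.

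**Figure D4:**
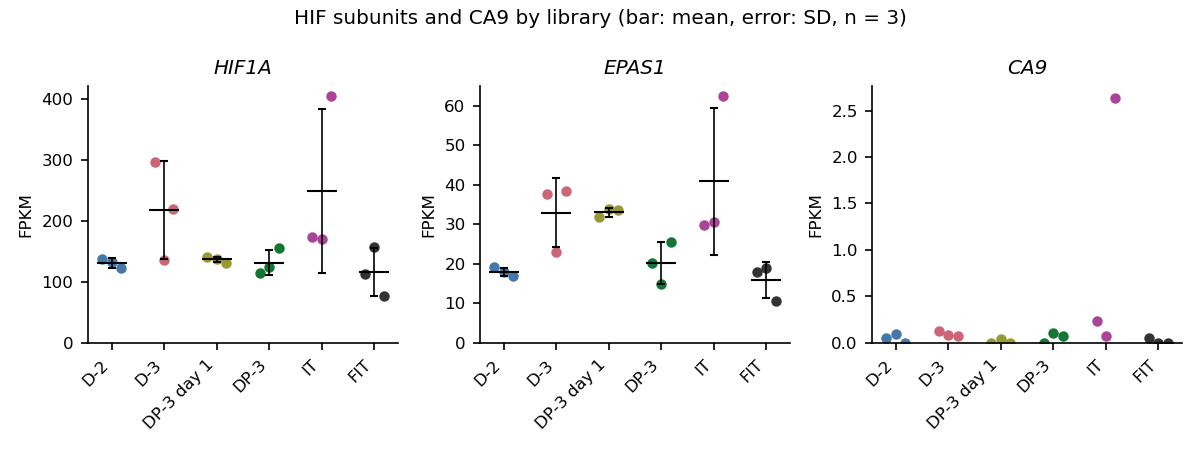
FPKM of HIF1A, EPAS1 and CA9 (y axes) in each library of the 6 groups (x axes). Bars and errors are means and SD (n = 3) and are left out for CA9, which is listed at 0 in several libraries. IT replicate 3 is the highest library for all 3 genes, at 405, 62.4 and 2.63 FPKM.

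The secreted targets were among the members that differed most. VEGFA, the main angiogenic growth factor (chr6:43770184-43786487), had 4.81, 5.53 and 5.74 FPKM in D-2, 27.4, 26.4 and 25.2 in D-3, 18.3, 16.9 and 16.7 in DP-3 day 1, 8.16, 8.63 and 7.09 in DP-3, 42.9, 22 and 42.2 in IT, and 21.0, 18.2 and 24.5 in FIT. D-2 was the lowest group and DP-3 the next, with no overlap between them or with any other group. VEGFA was a downregulated DEG in D-2 (log2 fold change -1.83 ± 0.13 (SE), adjusted p = 0.00134) and DP-3 (log2 fold change -1.29 ± 0.15 (SE), adjusted p = 0.00791) against FIT, and an upregulated DEG in D-3 against D-2 (log2 fold change 2.05 ± 0.11 (SE), adjusted p = 0.000502). All 3 calls held without any 1 library. It fell from day 1 to day 14 in the printed tissue (log2 fold change -0.86 ± 0.09 (SE), adjusted p = 0.00209) with under 2-fold change.

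ANGPTL4, a lipoprotein lipase inhibitor induced by hypoxia and by PPAR (chr19:8363289-8374370), was at 6.0, 4.48 and 2.97 FPKM in D-2, 14.1, 19.4 and 14 in D-3, 32.1, 34.8 and 32.9 in DP-3 day 1, 12.4, 5.01 and 6.67 in DP-3, 13.3, 2.16 and 44.7 in IT, and 36.7, 21.3 and 15.2 in FIT. D-2 lay below FIT, D-3 and DP-3 day 1, and the IT libraries spanned the whole range. ANGPTL4 was a DEG in D-2 against FIT (log2 fold change -2.28 ± 0.37 (SE), adjusted p = 0.00582), in D-3 against D-2 (log2 fold change 1.56 ± 0.27 (SE), adjusted p = 0.00623) and in DP-3 against day 1 (log2 fold change -1.78 ± 0.31 (SE), adjusted p = 0.00900), each with or without any 1 library. CA12, a second membrane carbonic anhydrase (chr15:63321378-63381846), followed another order, with 19.9, 19.9 and 20.2 FPKM in D-2, 21.8, 18 and 22.5 in D-3, 17.8, 28.3 and 16.6 in DP-3 day 1, 26.1, 21.6 and 30.6 in DP-3, 14.6, 11.8 and 31.0 in IT, and 10.5, 11.7 and 10.2 in FIT. FIT was the lowest group without overlap. CA12 was a DEG in D-2 (log2 fold change 1.04 ± 0.10 (SE), adjusted p = 0.00195) and DP-3 (log2 fold change 1.40 ± 0.19 (SE), adjusted p = 0.0122) against FIT, the first under 2-fold without FIT replicate 1 or 3 (0.97 and 0.96) and the second lost without DP-3 replicate 1 or FIT replicate 1 (adjusted p = 0.0535 and 0.0563). ADM, the vasodilator adrenomedullin, ranged from 27.3 to 164 FPKM, highest in IT replicate 3, and fell in DP-3 against day 1 by 0.60.

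DDIT4, which restrains mTOR complex 1 under hypoxia and energy stress (chr10:72273924-72276036), had the widest spread of group means among the members above 1 FPKM. Its values were 2.90, 3.56 and 4.32 FPKM in D-2, 95.2, 55.4 and 140.2 in D-3, 55.6, 52.3 and 52.7 in DP-3 day 1, 6.12, 6.20 and 4.81 in DP-3, 75.0, 12.1 and 44.7 in IT, and 14.2, 10.6 and 18.1 in FIT. D-2 and DP-3 were lowest, FIT came next except that IT replicate 2 fell among its libraries, and D-3 and DP-3 day 1 exceeded FIT in every library. It was a DEG in 5 comparisons. The change in D-3 against D-2 was 22.6-fold (log2 fold change 4.50 ± 0.37 (SE), adjusted p = 0.00115). Against FIT it was higher in D-3 (log2 fold change 2.71 ± 0.34 (SE), adjusted p = 0.00538) and lower in D-2 (log2 fold change -1.83 ± 0.23 (SE), adjusted p = 0.00294) and DP-3 (log2 fold change -1.19 ± 0.21 (SE), adjusted p = 0.0225). From day 1 to day 14 of the printed tissue it fell 7.79-fold (log2 fold change -2.96 ± 0.11 (SE), adjusted p = 0.000137). The call in DP-3 against FIT was lost without any 1 of DP-3 replicates 1, 2 and 3 or FIT replicate 1 (adjusted p = 0.0674 to 0.0761), and the other 4 held without any 1 library.

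NDRG1, a stress-induced gene long used as a hypoxia marker on chromosome 8, had 8.56, 8.48 and 9.22 FPKM in D-2, 53.7, 24.5 and 48.3 in D-3, 22.4, 21.2 and 19.4 in DP-3 day 1, 11.7, 11.8 and 10.6 in DP-3, 42.1, 24.2 and 55.0 in IT, and 12.7, 13.3 and 10.8 in FIT. D-3 and IT were above all other libraries, and the D-2 libraries were the lowest. NDRG1 was a DEG in D-3 against D-2 (log2 fold change 2.01 ± 0.28 (SE), adjusted p = 0.00319) and against FIT (log2 fold change 1.71 ± 0.29 (SE), adjusted p = 0.0141), the second lost without D-3 replicate 1 or 3 (adjusted p = 0.0545 and 0.0671). BNIP3L, a mitophagy receptor, ranged from 8.92 to 24.2 FPKM and rose in D-3 against D-2 by 0.83. BNIP3, its close relative, ranged from 4.74 to 10.3 FPKM and rose in D-2 against FIT (0.72), D-3 against FIT (0.69) and DP-3 against day 1 (0.39), always under 2-fold.

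P4HA1 and P4HA2 encode the catalytic subunits of collagen prolyl 4-hydroxylase, an oxygen-dependent enzyme. P4HA1 (chr10:73007217-73096974) was at 12.3, 12.4 and 11.1 FPKM in D-2, 16.9, 15.5 and 21.1 in D-3, 14.4, 14.2 and 12.7 in DP-3 day 1, 13.4, 16.0 and 12.5 in DP-3, 12.9, 14.2 and 31.6 in IT, and 9.88, 6.12 and 8.81 in FIT. P4HA2 (chr5:132191838-132295315) was at 6.64, 6.02 and 6.82 FPKM in D-2, 11.6, 8.53 and 15.1 in D-3, 10.6, 10.9 and 10.3 in DP-3 day 1, 6.90, 6.98 and 5.77 in DP-3, 5.84, 7.34 and 15 in IT, and 4.98, 4.35 and 7.19 in FIT. FIT was the lowest group for P4HA1, and both were DEGs in D-3 against FIT (log2 fold change 1.06 ± 0.20 (SE), adjusted p = 0.0214, and log2 fold change 1.04 ± 0.25 (SE), adjusted p = 0.0415). The P4HA1 call ended when replicate 1 or 3 of D-3 or replicate 2 of FIT was left out (adjusted p = 0.0699 to 0.0972), and the P4HA2 call when replicate 1 or 3 of D-3 or replicate 1 or 2 of FIT was (0.121 to 0.155).

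MXI1, an antagonist of MYC (chr10:110207605-110287365), was at 0.634, 0.752 and 1.59 FPKM in D-2, 7.79, 2.04 and 9.10 in D-3, 1.09, 1.71 and 2.26 in DP-3 day 1, 1.15, 1.77 and 2.11 in DP-3, 5.04, 4.64 and 9.73 in IT, and 2.79, 2.57 and 1.84 in FIT. D-3 replicates 1 and 3 and the IT libraries were high and D-3 replicate 2 was within the range of the other groups. MXI1 was a DEG in D-3 against D-2 (log2 fold change 2.41 ± 0.59 (SE), adjusted p = 0.0187), a call that ended when any 1 of replicates 1 and 2 of D-2 or 1 and 3 of D-3 was left out (adjusted p = 0.0560 to 0.0654). ANKRD37 (chr4:185396021-185400241) was at 0.598, 0.422 and 0.253 FPKM in D-2, 1.83, 1.44 and 1.35 in D-3, 0.734, 0.841 and 0.783 in DP-3 day 1, 0.584, 0.669 and 0.684 in DP-3, 0.741, 0.736 and 1.74 in IT, and 1.41, 1.60 and 0.999 in FIT. D-2 was below D-3 and FIT without overlap, and ANKRD37 was a DEG in both comparisons (log2 fold change 1.57 ± 0.37 (SE), adjusted p = 0.0161, and log2 fold change -1.47 ± 0.39 (SE), adjusted p = 0.0285). The first ended when D-2 replicate 2 was left out (adjusted p = 0.0544), and the second when replicate 2 or 3 of D-2 or replicate 1 or 2 of FIT was (0.0646 to 0.0882). KDM3A, a histone demethylase induced by HIF, ranged from 1.91 to 6.57 FPKM, rose in D-3 against D-2 by 0.93 and fell in DP-3 against day 1 by 0.56.

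**Figure D5:**
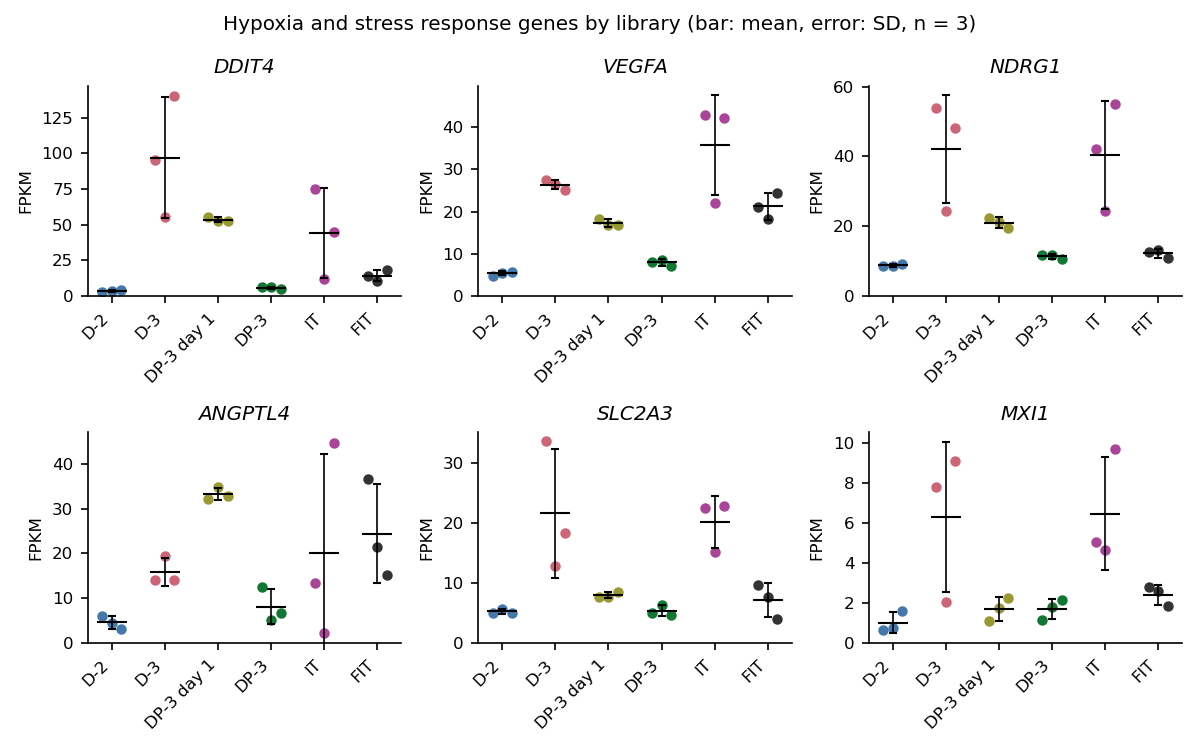
FPKM of 6 genes of the hypoxia and stress response (y axes) in each library of the 6 groups (x axes), with the mean as a bar and the SD as error (n = 3). DDIT4, VEGFA and NDRG1 are lowest in D-2 and DP-3, and SLC2A3 and MXI1 stand high in most D-3 and IT libraries. For ANGPTL4 the 3 DP-3 day 1 libraries lie between 32.1 and 34.8.

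Reads of some members may be shared with other genes. P4HA2, PGK1, CA9, GAPDH, TPI1, ENO2, PFKFB4, SLC16A3, ALDOA, PFKM and ANKRD37 overlap a gene with a mean of at least 1 FPKM, and whether strand was used in counting is not given in the sources used here. Processed pseudogenes with a mean above 1 FPKM exist for TPI1 (up to 22), GAPDH (5.2), LDHA (4.45) and ENO1 (1.71). Values of these members are uncertain to that extent.

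Beyond the 44 members, 54 other genes of glucose handling and the hypoxia response were read from a fixed list. In D-3 against D-2, 8 of 42 tested were upregulated DEGs (19.0%) beside 14.6% of all genes, and 2 were downregulated (4.76%) beside 3.95%. In D-3 against FIT, 8 of 42 were upregulated (19.0%) beside 4.29% and 1 downregulated (2.38%) beside 2.17%. In D-2 against FIT, 4 of 41 were upregulated (9.76%) beside 3.83% and 3 downregulated (7.32%) beside 10.8%. In DP-3 against day 1, 1 of 40 was upregulated (2.5%) beside 1.81% and 5 were downregulated (12.5%) beside 5.76%. DP-3 against FIT had 1 upregulated of 41 (2.44%) beside 1.66% and 0 downregulated beside 3.16%, DP-3 against D-2 had 0 beside 0.722% and 1 (2.44%) beside 0.318%, and IT against FIT had 0 in both directions. PLIN2, SLC2A6 and HKDC1 were among those with the largest changes. PLIN2, a lipid droplet coat protein, was at 0.623 to 2.37 FPKM in D-3 and at 0 to 0.0277 in D-2, a fitted difference of 6.22 ± 0.94 (log2 ± SE, adjusted p = 0.00397) that depends on how values near 0 are handled. HKDC1, a hexokinase-like enzyme, was at 3.81 to 4.20 FPKM in D-3 and 0.284 to 0.618 in FIT (2.94 ± 0.34, adjusted p = 0.00413). SLC2A6, a lysosomal hexose carrier, was at 0.941 to 1.25 FPKM in D-3 and at 0 to 0.114 in FIT (4.14 ± 1.03, adjusted p = 0.0469), where the same limit holds.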

How the data were processed

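RNA from 18 Saos-2 libraries, 3 in each of 6 groups named by the sample labels, was analysed. The authors captured poly(A) RNA, sequenced it in pairs and, per the submitters' processing notes, used Cutadapt 1.9, HISAT2 2.0.4 and StringTie 1.3.4d. The genome build and annotation are not given in the sources used here. The positions of all 44 members overlap those of GENCODE 29 (GRCh38). The FPKM values were computed by the authors with StringTie and deposited. The deposited estimated counts are whole numbers in which about 4 stand for 1 read pair. How they were made is not given in the sources used here. No column of sample values was left unused.

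Genes reaching 0.1 FPKM in 3 or more of a comparison's 6 libraries were tested on the estimated counts with edgeR 4.0.16 in R 4.3.3 (TMM, estimateDisp, glmQLFit, glmQLFTest); each SE was taken as the absolute log2 fold change over the root of the F statistic. Tests were checked on counts simulated from the D-3 and FIT libraries, with 200 of 21676 genes changed. There edgeR recovered 84 of the 200 with 11 false calls, and DESeq2 recovered 109 with 69 false calls. Alternatives were DESeq2 1.42.0, median-of-ratios scaling, other FPKM minimums, 1 fit of all 18 libraries, a replicate block, limma 3.58.1 on log2(FPKM + 0.1) and log2(FPKM + 1), and leaving out each library. The 44 members and the lists were chosen with earlier results of these data known. Values by library are given for members that were DEGs in at least 1 comparison, at most 4 per role by the largest change, for the most abundant member of a role with none, and for HIF1A, EPAS1, SLC2A1, PGK1, LDHA, CA9 and VEGFA. Promoter sequences are RefSeq's (GRCh38.p14). Of the other pathway genes, 1 that counts among those with the largest changes is not reported here.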

Additional observations from a re-analysis of the deposited data

Results flagged for a closer look

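For 5 members all 3 libraries of one culture lay above FIT and all 3 of the other below it, and the direct test of D-3 against D-2 called the difference (edgeR, adjusted over all genes). How many of all genes meet this rule was not counted, so the 5 cannot be read as unusual. Of 19513 genes, 3679 lay wholly above and 6055 wholly below FIT in D-2. Of 21676 genes, 4439 lay wholly above and 2574 wholly below FIT in D-3. DDIT4 was above FIT in D-3 and below it in D-2, and differed between the 2 cultures by 4.50 ± 0.37 (log2 ± SE, adjusted p = 0.00115). VEGFA had the same order, with a difference of 2.05 ± 0.11 (adjusted p = 0.000502). NDRG1 did so as well, with 2.01 ± 0.28 (adjusted p = 0.00319). LDHA was below FIT in D-3 and above it in D-2, a difference of -1.43 ± 0.16 (adjusted p = 0.00215). PGAM1 followed LDHA with -1.26 ± 0.18 (adjusted p = 0.00371). The groups of 3 libraries are too small for a test of single outlying libraries, IT replicate 3 included.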

How the results depend on the processing

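Of the 34 pairs of a called member and a comparison, 0 changed direction under any alternative. With DESeq2 34 stayed called, with median-of-ratios scaling 33, without an FPKM filter 33, with 1 fit of all 18 libraries 30, 27 with limma at a pseudocount of 0.1 FPKM and 24 at 1. Over all pairs, 151 of the fits that left out 1 library kept the call and 53 did not, and 16 pairs kept it in all of theirs.

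In D-2 against FIT the number of members called went from 8 to 5 with an FPKM minimum of 1, beside 360 genes up and 1242 down. It went to 4 with limma at a pseudocount of 1, beside 201 genes up and 704 down. With no fold minimum it was 20, and leaving out 1 library gave 5 to 8. In D-3 against FIT, with 7, leaving out 1 library gave 2 to 10. In DP-3 against FIT it went from 4 to 8 with no fold minimum, beside 843 genes up and 840 down. With 1 library left out it was 1 to 5. In IT against FIT it went from 0 to 6 with DESeq2, to 6 with 1 fit of all libraries and to 1 with no FPKM filter. In DP-3 against DP-3 day 1 it went from 3 to 17 with no fold minimum and to 0 with the day 1 libraries averaged. In D-3 against D-2 it went from 11 to 25 with no fold minimum, and in DP-3 against D-2 from 1 to 3. In DP-3 against D-2 it was 0 with 1 fit of all libraries, with limma at either pseudocount, and with any 1 library left out. There 1 fit of all libraries called 115 genes up and 27 down. Limma called 103 and 36 at a pseudocount of 0.1 and 36 and 21 at 1. Leaving out 1 library gave 1 to 136 genes up and 2 to 87 down. The numbers of DEGs among all genes, up and down, moved in the other comparisons as well. Leaving out 1 library gave 478 to 1004 and 1204 to 1976 in D-2 against FIT. It gave 139 to 983 and 101 to 583 in D-3 against FIT, and 42 to 631 and 48 to 807 in DP-3 against FIT. In IT against FIT, DESeq2 gave 435 and 226, 1 fit of all libraries 402 and 151, and no FPKM filter 30 and 23. The causes were not tested.

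The labels number replicates 1 to 3 in each group, but same-numbered libraries did not deviate together (r of -0.04 to 0.06 over 21 pairs, 7 of which were the best match of their library). The numbers were therefore not used as a pairing. With 3 libraries a group this check cannot exclude shared tumours or batches. With a replicate block the members called were 2 in DP-3 against FIT (CA12 and DDIT4 lost) and 0 in DP-3 against D-2, and ENO2 lost both its calls. The block gave 68 genes up and 96 down in DP-3 against FIT, and 9 and 6 in DP-3 against D-2. Limma on FPKM turned the sign of 22 of 300 tested values, 0 of them with an adjusted p under 0.05. Precision is limited by 3 libraries a group and, in FIT replicate 3, by depth.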

Other observations

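Within families of related enzymes the make-up by FPKM, a ratio formed within each library, differed between groups for some members and is given without a test. BNIP3L made up 53.6 ± 2.38% of the BNIP3 and BNIP3L level in D-2 (50.9% to 55.1%) and 68.0 ± 2.65% in D-3 (65.0% to 70.1%), and no library of D-2 reached the range of any other group. PFKFB4 made up 21.6 ± 3.86% of the PFKFB3 and PFKFB4 level in D-2, 24.3 ± 1.10% in FIT and between 31.1 ± 1.0% and 36.2 ± 3.54% in the other 4 groups. PDK3 made up 47.7 ± 12% of the PDK1 and PDK3 level in D-3 and 61.8 ± 8.99% to 71.2 ± 3.88% elsewhere. HK2, the hypoxia-inducible hexokinase, stayed between 24.1 ± 1.58% and 33.8 ± 6.51% of the HK1 and HK2 level.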
